A study of Caenorhabditis elegans with 6 samples.

Results

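The epidermal and secreted antimicrobial peptide genes of Caenorhabditis elegans were compared between 2 RNA interference (RNAi) groups. The members were the rows of the deposited tables whose gene symbol starts with fipr-, fip-, cnc-, abf- or grsp-, or is nlp-27 to nlp-34. This rule found 41 genes among 15796 loci per table, and the gene and locus of all 41 were the same in all 7 tables. They were 19 fipr, 6 cnc, 6 nlp, 4 grsp, 3 fip and 3 abf genes. Whole adult worms of the Bristol N2 strain, wild type in genotype, were used in both groups. RNAi was given by feeding from the L4 larval stage, and the adults harvested were the offspring of the treated larvae. The control group received RNAi of tag-208 (listed as sorb-1 in the tables) and the other RNAi of prx-5, with 3 libraries each. The labels do not say whether these came from separate cultures, so p-values measure only the spread between these libraries, which may be technical. RNA came from whole bodies, so fewer cells of a type and less RNA per cell cannot be told apart in any difference below.

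The worm has no adaptive immunity, and its epidermis and gut secrete small peptides that act on microbes. The peptides of the nlp-29 and cnc clusters, rich in glycine and aromatic residues, are made in the epidermis after fungal infection or wounding. The nlp-29 cluster is induced through the p38 kinase PMK-1, its adaptor TIR-1 and the STAT-like factor STA-2. The gene cnc-2 answers to the TGF-beta ligand DBL-1. The name fip stands for fungus-induced protein, fipr for a relative of it, and grsp for glycine-rich secreted protein. The abf genes encode relatives of the nematode antibacterial factors, which are cysteine-rich and resemble defensins. The receptor PRX-5 brings most enzymes into the peroxisome, and the comparison asks how transcripts respond when its gene is targeted.

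The transcript of prx-5 itself was more abundant under the prx-5 label, so every direction given here is that of the labels alone. It stood at 4.48, 4.73 and 3.50 FPKM (fragments per kilobase of transcript, scaled to library size) in control-labelled replicates 1, 2 and 3 and at 14.9, 21.3 and 23.5 in the prx-5-labelled ones (log2 fold change 1.98 ± 0.22 SE, limma adjusted p = 0.00867). The control's target sorb-1 had 10.5 ± 3.11 and 18.0 ± 6.60 FPKM (SD, n = 3; log2 fold change 0.72, adjusted p = 0.232 by limma), and its groups did not overlap. The files give no read totals. Low FPKM values put the depth of the other libraries at 0.767 to 1.26 times that of control replicate 1, the lowest being prx-5 replicate 1 and the highest prx-5 replicate 3. Fold changes were taken by limma on log2(FPKM + 1), prx-5 minus control, with p-values adjusted over 13350 loci by the Benjamini-Hochberg method. Of all tested loci, 1004 were higher and 160 lower at an adjusted p under 0.05, a split that became 479 and 177 with median-ratio scaling, 531 and 239 with quantile normalization and 519 and 191 with the authors' constants. The intestine markers were higher in these libraries, with summed levels of 1621.8 to 2150.1 FPKM in the control-labelled and 4027.3 to 6665.9 FPKM in the prx-5-labelled libraries over the 10 markers with a value in all 6. Of the 11 tested, 10 rose, among them vit-2, whose value in prx-5 replicate 3 was missing and left out of its fit and of the sums. The body wall muscle markers summed to between 5802.6 and 6125.5 FPKM in the control-labelled and between 2791.5 and 4367.7 FPKM in the prx-5-labelled libraries (0 of 7 called). Of the germline, neuron, pharynx and sperm markers 0 were called. The part of these tissues in the levels of the peptide genes was not tested.

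Of the 41 peptide genes, 39 had a mean of at least 1 FPKM and were tested. Of these, 4 fell under the prx-5 label and 0 rose. All 4 are fipr genes, namely fipr-5, fipr-9, fipr-13 and fipr-21. Among all tested loci, 8.72% were called by the same limma test, 1.2% as lower and 7.52% as higher. At an unadjusted p under 0.05 there were 7 lower and 1 higher members, where 22% of all tested loci passed, 4.46% as lower and 17.5% as higher. In the authors' deposited table, significant members numbered 6 lower and 0 higher, where 4.85% of all tested loci were significant and lower and 9.52% significant and higher. The 6 were the 4 fipr genes with nlp-27 and nlp-33. The median log2 fold change of the 39 was -0.07, against 0.04 over all tested loci, and 53.8% of the 39 lay below 0, against 46.6% of all. Groups did not overlap in 9 members, with 8 lower and 1 higher in every prx-5-labelled library, where 5.81% of all loci were lower and 21.2% higher in this way. The 2 untested genes, fipr-22 and fipr-23, lay below 2 FPKM in every library, and fipr-23 was listed at 0 in all 3 control-labelled libraries.

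**Figure D1:**
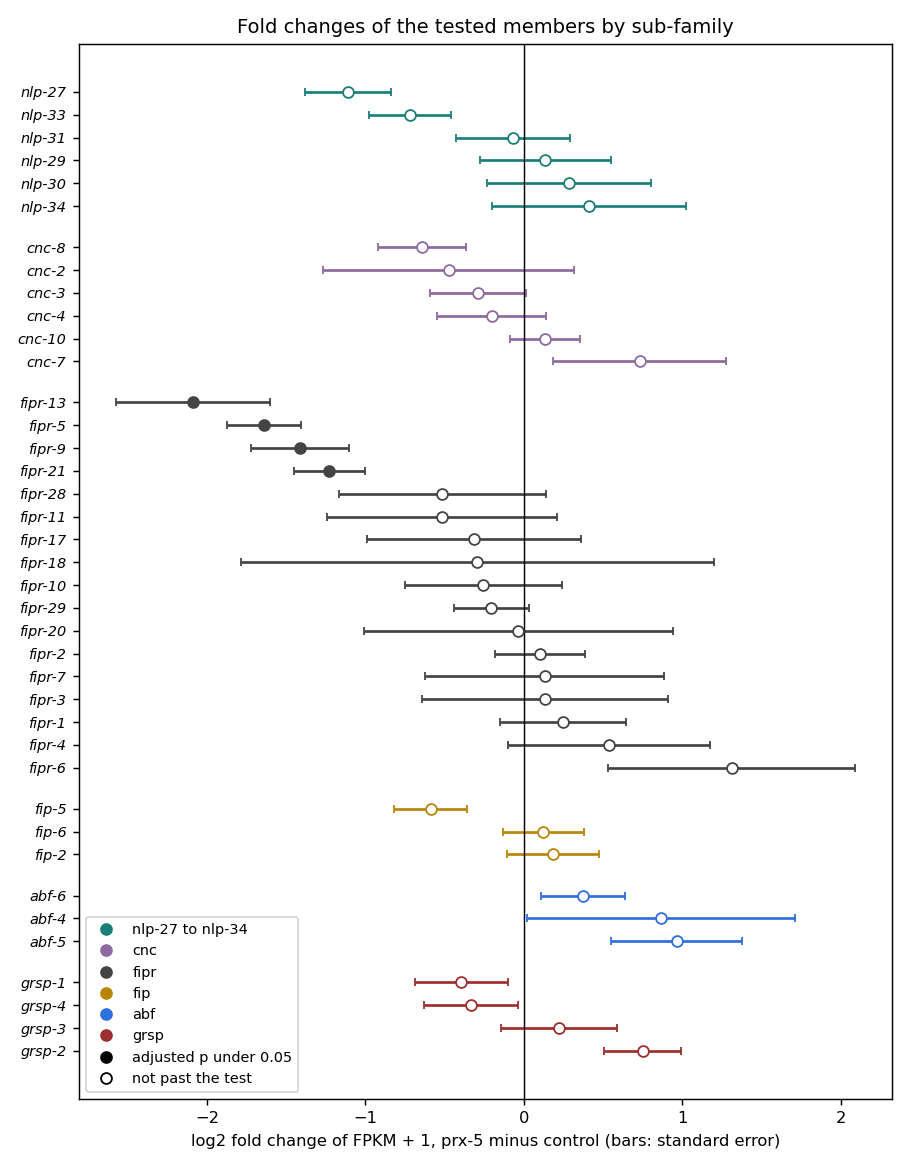
Log2 fold change of FPKM + 1, prx-5-labelled minus control-labelled libraries, for the 39 tested members by sub-family (3 libraries a group). Points are limma estimates, bars are standard errors and filled points are the 4 members with an adjusted p under 0.05, all of them fipr genes below 0.

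The fipr genes were the largest sub-family, with 17 tested, and varied most among themselves. Their log2 fold changes ran from -2.09 for fipr-13 to 1.31 for fipr-6, with a median of -0.25 against 0.04 over all tested loci. Of the 17, 4 fell and 0 rose, and the groups of the other 13 overlapped. The role of single fipr genes is not given by the labels, and only the family's likeness to the fungus-induced proteins is used here.

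The gene with the largest fall was fipr-13 (WBGene00010183), which lies on chromosome V from 10064521 to 10064942 and encodes 78 residues. It had 122.1, 85.9 and 69.25 FPKM in control-labelled replicates 1, 2 and 3, and 46.6, 13.96 and 12.7 FPKM in the prx-5-labelled ones. The lowest control value was above the highest prx-5-labelled value, and prx-5 replicate 1 stood above the other two. The means were 3.78-fold lower (92.4 ± 27 to 24.4 ± 19.2 FPKM, SD, n = 3), and the log2 fold change was -2.09 ± 0.49 (SE, limma adjusted p = 0.0431).

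The pair fipr-5 (WBGene00044174) and fipr-9 (WBGene00044175) are neighbours on chromosome V, from 10220981 to 10221417 on the minus strand and from 10221662 to 10222021 on the plus strand in the WBcel235 annotation. For fipr-5 the control-labelled libraries held 14.5, 16.8 and 12.1 FPKM and the prx-5-labelled ones 2.92, 3.86 and 5.27. These groups lay far apart next to their own spread, 3.61-fold by the means, with a log2 fold change of -1.64 ± 0.23 (SE, limma adjusted p = 0.0140). For fipr-9 the values were 24.1, 43.7 and 23.6 FPKM in the control-labelled and 14.8, 8.25 and 9.01 FPKM in the prx-5-labelled libraries. Control replicate 2 was the highest of the 6, and the groups did not overlap. The log2 fold change of fipr-9 was -1.41 ± 0.31 (SE, limma adjusted p = 0.0373), over a locus that covered 58.1% of the gene.

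The most abundant member was fipr-21 (WBGene00009621, chromosome X from 10304529 to 10304867), which has 1 exon in the annotation. It had 216.4, 295.9 and 217.3 FPKM in the control-labelled libraries and 82.8, 98.3 and 131.3 FPKM in the prx-5-labelled ones. Every prx-5-labelled value was below every control value. The means fell 2.34-fold, and the log2 fold change was -1.23 ± 0.22 (SE, limma adjusted p = 0.0233).

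**Figure D2:**
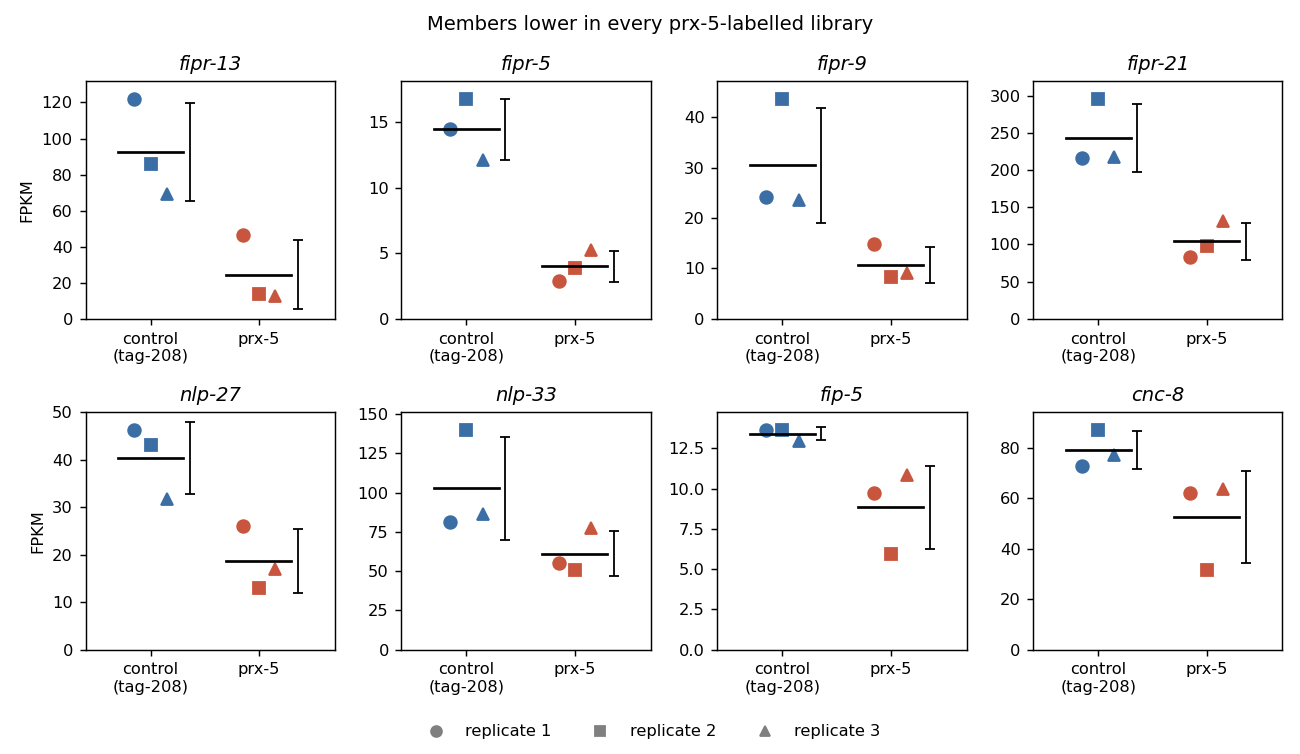
FPKM in each library for the 8 members whose prx-5-labelled values all lay below their control-labelled values. Symbols mark the replicates, horizontal lines the group means and bars ± 1 SD (n = 3), and each axis starts at 0; fipr-13, fipr-5, fipr-9 and fipr-21 passed the test and the other 4 did not.

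Together, the 4 called genes held 61.1%, 52.5% and 55.0% of the summed FPKM of the 19 fipr genes in control-labelled replicates 1, 2 and 3. In the prx-5-labelled replicates they held 45.0%, 31.1% and 24.8%. These shares do not depend on the scaling between libraries, and the genes were picked by this same contrast, so the shares are a description. The other 15 fipr genes summed to 239.7, 399.9 and 263.5 FPKM in the control-labelled and to 179.6, 275.6 and 479.7 FPKM in the prx-5-labelled libraries, which overlap.

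Among the other abundant fipr genes, fipr-2 had 119.7, 143.1 and 101.6 FPKM in the control-labelled and 86.0, 140.6 and 179.3 FPKM in the prx-5-labelled libraries. The groups overlapped, with a log2 fold change of 0.11 ± 0.28 (SE) and a 95% interval from -0.56 to 0.78 (limma adjusted p = 0.854). Its neighbour fipr-1 had 52.7, 64.1 and 48.4 FPKM in the control-labelled and 38.1, 58.1 and 124.7 FPKM in the prx-5-labelled libraries, where prx-5 replicate 3 was the highest of the 6 (0.25 ± 0.40, adjusted p = 0.750). The fipr-1 row carries a locus of 5208 bp that also spans gcy-13 and F23H12.5 in the annotation. A separate row with the same locus is listed for F23H12.5, with means of 0.63 FPKM in the control-labelled and 2.27 FPKM in the prx-5-labelled libraries. The values of fipr-1 and F23H12.5 were thus given apart. Both fipr-1 and fipr-2 were well above the level of most fipr genes, whose median was 11.7 FPKM. The intervals of most fipr genes were wide: the median standard error in the sub-family was 0.64 on the log2 scale, against 0.23 over all tested loci.

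Of the nlp genes, which encode the glycine-rich peptides of the epidermis, 0 of 6 passed limma, with 2 at an unadjusted p under 0.05 (22% of all tested loci) and 2 significant in the authors' deposited table. The median log2 fold change was 0.03. Both genes with an unadjusted p under 0.05 had negative fold changes and were among the 3 most abundant of the sub-family.

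The row of nlp-27 had 46.4, 43.1 and 31.8 FPKM in the control-labelled and 26.1, 13.1 and 16.9 FPKM in the prx-5-labelled libraries. The groups did not overlap, and the log2 fold change was -1.11 ± 0.27 (SE), which just missed the threshold (limma adjusted p = 0.0519). It passed with median-ratio scaling, with the authors' constants, with a higher filter, with loci of at least 200 bp, with sample weights, with the replicate block and without prx-5 replicate 1. The row spans 1865 bp on chromosome V and covers nlp-28 as well as nlp-27, which lie on the same strand, so it cannot be assigned to nlp-27 alone. In the authors' deposited table its log2 fold change was -1.26 with a q of 0.00101.

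For nlp-33, which lies apart from the cluster, the control-labelled libraries had 81.4, 140.2 and 86.5 FPKM and the prx-5-labelled ones 55.3, 50.9 and 77.5. The groups did not overlap, though prx-5 replicate 3 came close to control replicate 1. The log2 fold change was -0.72 ± 0.26 (SE) and did not pass the test (limma adjusted p = 0.163), while the authors' deposited table called it lower (log2 -0.89, q = 0.0174).

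The infection and wounding reporter nlp-29 had 34.9, 35.3 and 18.2 FPKM in the control-labelled and 49.7, 17.4 and 34.6 FPKM in the prx-5-labelled libraries. Each group held both high and low libraries, and the log2 fold change was 0.14 ± 0.41 (SE), with a 95% interval from -0.84 to 1.11 (limma adjusted p = 0.873). The sign turned under quantile normalization (-0.04) and with sample weights (-0.54). The neighbouring nlp-31, whose peptide is known to act against fungi and chosen for naming with its values known, stood at 31.6, 39.3 and 19.2 FPKM against 38.4, 17.04 and 31.4 FPKM (log2 -0.07 ± 0.36, adjusted p = 0.933). For nlp-34 the values were 4.57, 8.04 and 4.80 against 19.3, 2.35 and 9.19 FPKM. The prx-5-labelled libraries thus enclosed the control-labelled ones (log2 0.41 ± 0.61, adjusted p = 0.730).

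Of the 6 cnc genes (caenacins, the second peptide family of the epidermis), 0 passed limma, 0 had an unadjusted p under 0.05 and 0 were significant in the authors' deposited table. The median log2 fold change was -0.25. The most abundant, cnc-8 on chromosome X, had 72.6, 87.2 and 77.3 FPKM in the control-labelled and 62.1, 31.6 and 63.7 FPKM in the prx-5-labelled libraries. Its groups did not overlap, and its log2 fold change was -0.64 ± 0.28 (SE, limma adjusted p = 0.236). For cnc-3, the control-labelled libraries had 27.3, 20.8 and 17.2 FPKM and the prx-5-labelled ones 20.4, 10.9 and 23.1 (log2 -0.29 ± 0.30, adjusted p = 0.626). For cnc-10 they had 20.5, 29.2 and 18.6 against 22.1, 22.5 and 30.2 FPKM (log2 0.13 ± 0.22, adjusted p = 0.754; -0.06 under quantile normalization). In both genes the groups overlapped. The least abundant, cnc-7, ran from 1.53 to 4.48 FPKM in the control-labelled and from 2.18 to 12.4 FPKM in the prx-5-labelled libraries (log2 0.73 ± 0.54, adjusted p = 0.485; -0.30 with sample weights), over a locus that covered 34.7% of the gene. The DBL-1 target cnc-2, named after its values were seen, was the most variable, at 20.99, 10.02 and 10.9 against 29.5, 1.88 and 11.2 FPKM.

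The 3 fip genes gave 0 limma calls, 1 unadjusted p under 0.05 (22% of all tested loci) and 0 significant rows in the authors' deposited table. The fip-5 values were 13.7, 13.6 and 12.9 FPKM in the control-labelled libraries and 9.69, 5.92 and 10.9 FPKM in the prx-5-labelled ones. The control values were close together and all above the others, and the log2 fold change was -0.59 ± 0.23 (SE, limma adjusted p = 0.195). The abundant fip-2 had 59.6, 79.4 and 52.4 FPKM against 65.0, 52.1 and 107.7 (log2 0.18 ± 0.29, adjusted p = 0.747; -0.01 with sample weights), and fip-6 had 3.29, 5.57 and 3.39 against 5.72, 3.94 and 3.84 FPKM (log2 0.12 ± 0.26, adjusted p = 0.804; -0.21 under quantile normalization). In both, the groups overlapped.

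The 3 abf genes, of the defensin-like antibacterial factors, all had log2 fold changes above 0, with a median of 0.87, but 0 passed limma, 0 had an unadjusted p under 0.05 and 0 were significant in the authors' deposited table. In abf-5 the control-labelled libraries had 11.01, 26.03 and 12.2 FPKM and the prx-5-labelled ones 18.7, 33.2 and 46.4. Control replicate 2 lay above prx-5 replicate 1, so the groups overlapped (log2 0.97 ± 0.41 SE, limma adjusted p = 0.231). Its neighbour abf-6 had 13.1, 19.9 and 13.9 FPKM against 14.8, 20.1 and 27.7 (0.38 ± 0.27, adjusted p = 0.460). The values of abf-4 were 0.292, 5.30 and 0 FPKM against 0.381, 4.26 and 5.81 (0.87 ± 0.84, adjusted p = 0.598). In all 3 abf genes, control replicate 2 was the highest of its group, prx-5 replicate 3 the highest of its group and prx-5 replicate 1 the lowest. This order of libraries is set against all loci below.

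Of the 4 grsp genes, 0 passed limma, 1 had an unadjusted p under 0.05 (22% of all tested loci), and 0 were significant in the authors' deposited table. They encode proteins of 136 to 305 residues, longer than most members. The gene grsp-2 was the member higher in every prx-5-labelled library, at 7.50, 10.1 and 12.5 FPKM against 6.36, 4.24 and 5.92 in the control-labelled libraries (log2 0.75 ± 0.24 SE, limma adjusted p = 0.116). It passed with sample weights and without prx-5 replicate 1, and its row covers T28C6.10 on the same strand too. The most abundant, grsp-4, had 22.02, 18.7 and 23 FPKM against 16.7, 10.6 and 25.4 (-0.33 ± 0.30, adjusted p = 0.561). For grsp-1 the values were 6.56, 5.002 and 5.90 FPKM against 6.203, 2.48 and 4.49 (-0.39 ± 0.29, adjusted p = 0.485). The groups of both overlapped.

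The calls depended on which libraries were included. Without control replicate 1, control replicate 3 or prx-5 replicate 2 none of the 4 fipr calls was kept, in fits that called 302, 78 and 97 of all loci. In these 3 fits the log2 fold changes ran from -1.75 to -1.63 for fipr-5, -1.56 to -1.27 for fipr-9, -2.27 to -1.83 for fipr-13 and -1.302 to -1.198 for fipr-21. Of the 4 calls, 2 (fipr-5 and fipr-21) were kept without control replicate 2, 4 without prx-5 replicate 1 and 1 (fipr-5) without prx-5 replicate 3. Quantile normalization kept fipr-5 and fipr-9, and the fit without a variance trend kept fipr-5, fipr-9 and fipr-21.

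The members lie close together in the genome. Of the 41, 25 (61.0%) were on chromosome V, which held 20.3% of all loci used, and 0 were on chromosome II. With gaps of at most 20 kb, 26 members fell into 9 groups of neighbours. Their products are short, with a median of 75 residues against 355 over the loci used, and 31 of the 41 have 2 exons in their largest annotated transcript. The loci were short too, with a median of 492 bp. In 12 of the 41 the locus overlapped another annotated gene. Whether reads were counted by strand is not given in the sources used here, so reads of a gene on the opposite strand cannot be told apart from those of the member. Reads shared between near-identical copies could not be checked either, since no sequences were used here.

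Neighbours did not always move alike. On chromosome X, fip-5, fipr-21 and cnc-8 from 3 sub-families lie on the same strand within 4.21 kb, and in all 3 every prx-5-labelled value was below every control value. Their log2 fold changes were -0.59, -1.23 and -0.64, of which fipr-21 passed the test. In each library, fipr-21 was set against fip-5 as a log2 ratio of FPKM without a pseudocount, which is free of the scaling between libraries. The ratio was 3.99, 4.44 and 4.07 in the control-labelled and 3.10, 4.05 and 3.60 in the prx-5-labelled libraries, so the groups of ratios overlapped.

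On chromosome V, 5 fipr genes lie within 10.6 kb. At one end, fipr-5 and fipr-9 fell. At the other end, named after their values were seen, fipr-4, fipr-7 and fipr-6 had log2 fold changes of 0.54 ± 0.64, 0.13 ± 0.75 and 1.31 ± 0.78 (SE), and 0 of the 3 passed the test (adjusted p from 0.386 to 0.937). The sign of fipr-7 turned under quantile normalization (-0.20). The log2 ratio of fipr-5 to fipr-4 was 1.57, 0.23 and 2.48 in control-labelled replicates 1, 2 and 3 and -0.89, -0.70 and -1.77 in the prx-5-labelled ones, without overlap. For fipr-9 over fipr-7 the ratios were 1.80, 0.66 and 2.98 against 1.78, -0.45 and -0.94, and they overlapped. Between the 2 ends lies daf-36, which encodes an oxygenase of steroid hormone synthesis. It rose from 11.3 to 29.5 FPKM by the means (log2 1.36 ± 0.25 SE, limma adjusted p = 0.0236), and it is also named after its values were seen.

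In the nlp cluster of 10.9 kb on chromosome V, nlp-27 lies at one end. Its log2 ratio to nlp-29 was 0.41, 0.29 and 0.81 in the control-labelled and -0.93, -0.42 and -1.03 in the prx-5-labelled libraries. Against nlp-31 the ratio was 0.55, 0.13 and 0.73 and then -0.56, -0.38 and -0.90. In both ratios the groups did not overlap. These pairs were chosen after the values were seen, and their differences are descriptions. In the cnc cluster of 2.99 kb, cnc-4, cnc-3 and cnc-2 had a median log2 fold change of -0.29, and the groups of all 3 overlapped.

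**Figure D3:**
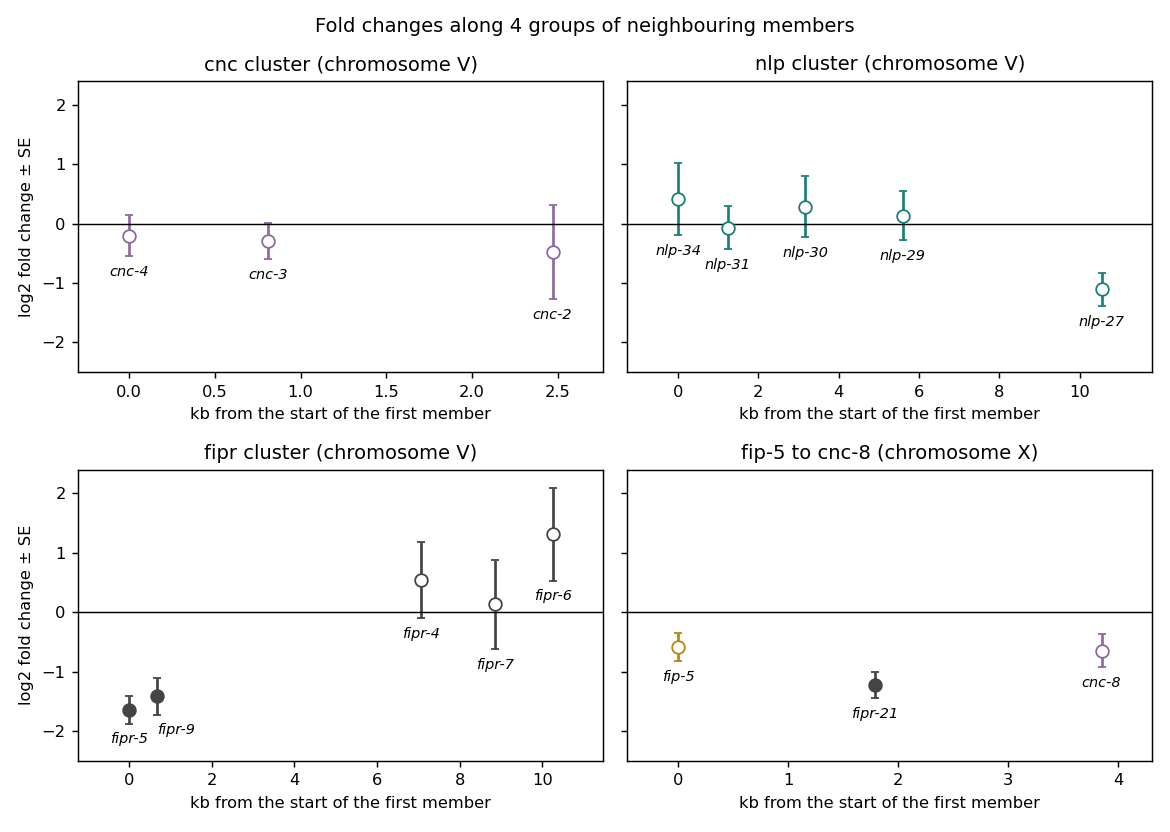
Log2 fold change (± SE) of members against the distance in kb from the start of the first member, for the 4 groups of at least 3 neighbours. Filled points passed the test; the 3 members on chromosome X all lie below 0, while fipr-5 and fipr-9 lie below 0 and fipr-4, fipr-7 and fipr-6 above it, within 10.6 kb.

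The spread between libraries of a group was wide in these genes, with a median standard error of 0.37 on the log2 scale against 0.23 over all tested loci. Control replicate 2 was the highest of the control-labelled libraries in 26 of the 39 tested members (66.7%), against 36% of all tested loci. It was at least 2 times both other controls in 10 members (25.6%), against 9.37% of all tested loci. These were fipr-3, fipr-4, fipr-6, fipr-7, fipr-10, fipr-11, nlp-30, abf-4, abf-5 and grsp-3, chosen after the values were seen. Their summed FPKM was 64.9, 229.1 and 44.0 in control-labelled replicates 1, 2 and 3, and 68.5, 109.4 and 192.3 in the prx-5-labelled ones. In the prx-5-labelled group, replicate 3 was the highest in 9 of these 10 (29.5% of all tested loci) and replicate 1 the lowest in 8 (39.6% of all tested loci). Over 13337 loci, the deviations of control replicate 2 from its group mean correlated at 0.33 with those of prx-5 replicate 3. With those of prx-5 replicate 1 they correlated at -0.446. This relation between the libraries was thus present over all loci and not only in these members.

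Sums of some gene lists, picked after their values were seen, were highest in the same library of each group as those members. The lowest prx-5-labelled library was also the same for the furrow collagens, but not for the pharynx markers. The genes that process secreted peptides, the infection and wounding reporters and the epidermis markers without col-19 matched the furrow collagens in all these libraries. The 5 furrow collagens, cuticle proteins whose loss is known to raise nlp-29, summed to 16.7, 66.3 and 15 FPKM in the control-labelled and to 43.4, 75.0 and 132.7 FPKM in the prx-5-labelled ones, and 0 of the 5 passed the test. The 12 pharynx markers summed to 238.7, 347.2 and 223.6 FPKM and to 256.6, 248.7 and 564.5 FPKM (0 of 11 tested passed). Their part in the levels of the peptide genes was not tested.

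Within the prx-5-labelled group, the nlp and cnc genes had another lowest library, while among the controls replicate 2 was again the highest in 5 of the 6 nlp genes. Prx-5 replicate 2 was the lowest of its group in all 6 nlp genes and in 5 of the 6 cnc genes, against 23.6% of all tested loci. Prx-5 replicate 1 was the highest in 4 of the 6 nlp and 3 of the 6 cnc genes, not far from its 45.3% of all tested loci. Prx-5 replicate 3 was the highest in 2 nlp and 3 cnc genes, against 29.5% of all tested loci. Summed over the nlp genes, the prx-5-labelled libraries had 195.5, 107.4 and 182.1 FPKM, and the control-labelled ones 204.1, 281.8 and 163.8. For the cnc genes the sums were 168.3, 76.4 and 145.1 against 160.0, 164.4 and 141.2 FPKM in the control-labelled libraries. The sums of both families overlapped between groups.

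A further set of fipr genes on chromosomes III and IV peaked in control replicate 3. These were fipr-17, fipr-18, fipr-20 and fipr-28, also chosen after their values were seen, and their loci were the shortest of the sub-family besides fipr-9, at 151 to 314 bp. In fipr-18, fipr-20 and fipr-28 control replicate 3 was at least 2 times both other controls, against 1.25% of all tested loci. Prx-5 replicate 3 was also at least 2 times both others of its group in the whole set, against 4.3% of all tested loci. For fipr-18 the values were 0, 5.46 and 38.7 FPKM in the control-labelled and 6.28, 0 and 18.2 FPKM in the prx-5-labelled libraries. The fold changes of these genes carried standard errors from 0.65 to 1.49 on the log2 scale, and the 95% interval of fipr-18 ran from -3.81 to 3.23.

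**Figure D4:**
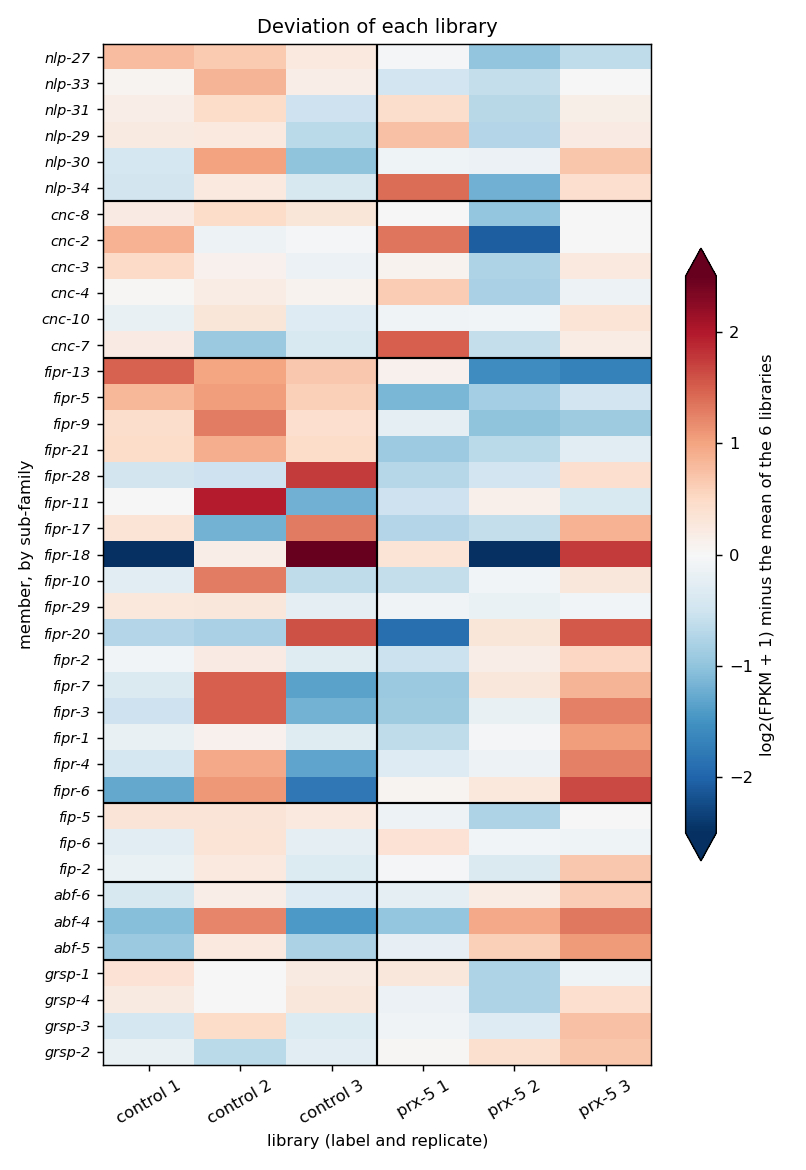
Log2(FPKM + 1) of each tested member minus its mean over the 6 libraries, in rows by sub-family and columns by library. Red is higher and blue lower, and the colour scale is capped at both ends; the 4 called fipr genes are red in the control columns, while fipr-3, fipr-4, fipr-6, fipr-7 and the abf genes are red in control 2 and prx-5 3.

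Lists of genes that act on these peptides, and of genes tied to osmotic stress, infection or wounding, were followed. Of 14 tested genes of epidermal immune signalling, 1 rose and 0 fell (median 0.28 on the log2 scale), a share near the 7.52% of all tested loci called higher. The riser was cebp-1, a C/EBP transcription factor gene, at 6.89 ± 0.95 and 20.3 ± 5.801 FPKM (SD, n = 3; log2 1.40 ± 0.25 SE, limma adjusted p = 0.0223). The Tribbles-like kinase gene nipi-3, needed for nlp-29 induction, had 17.5 ± 1.60 and 31.01 ± 6.80 FPKM (0.77 ± 0.19, adjusted p = 0.0555), and the phospholipase gene egl-8 had 0.53 ± 0.16 (adjusted p = 0.0885) on the log2 scale. Of 9 tested genes of the DBL-1 pathway, 1 rose and 0 fell, with a median of 0.54, where 7.52% of all tested loci were called higher. The riser was the Smad gene sma-3, at 5.27 ± 0.55 and 10.1 ± 1.26 FPKM (0.83 ± 0.18, adjusted p = 0.0373). In 7 of these 9, every prx-5-labelled value was above every control value, against 21.2% of all loci.

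Of 8 tested osmotic response genes, 0 rose and 1 fell, where 1.2% of all tested loci were called lower. The faller was gpdh-1, a glycerol-making enzyme gene that is raised by salt (6.22 ± 2.06 to 2.42 ± 0.22 FPKM, log2 -1.04 ± 0.25 SE, limma adjusted p = 0.0457). Of 7 tested genes that process secreted peptides, 1 rose, where 7.52% of all tested loci were called higher. The riser was the convertase gene kpc-1 (8.55 ± 0.73 to 15.4 ± 0.40 FPKM, log2 0.79 ± 0.15, adjusted p = 0.0277). Among 6 genes listed as infection and wounding reporters outside the members, irg-3 rose by 2.45 ± 0.24 and F53B2.8 by 2.83 ± 0.30 on the log2 scale (SE, limma adjusted p = 0.00652 and 0.00816). Of all tested loci, 7.52% were called higher. The tissue in which these 6 genes changed was not tested, and 10 of 11 tested intestine markers rose in the same libraries. In that list nlp-24 fell, from 288.4 ± 68.2 to 109.3 ± 32.0 FPKM (log2 -1.40 ± 0.26, adjusted p = 0.0253). By name nlp-24 belongs to the same series of peptide genes as nlp-27 to nlp-34. So does nlp-25 of that list, at 6.94 ± 4.28 and 6.86 ± 1.52 FPKM (log2 0.10 ± 0.37 SE, limma adjusted p = 0.906). It lies outside the rule for named genes.

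The epidermis itself was checked by its markers. Of 13 tested epidermis markers, 0 rose and 1 fell (median 0.10 on the log2 scale), where 1.2% of all tested loci were called lower. The summed level was 1159.9 to 1183.6 FPKM in the control-labelled and 483.9 to 516.4 FPKM in the prx-5-labelled libraries. Without col-19 the other 12 summed to 148.2, 195.9 and 168.4 FPKM in control-labelled replicates 1, 2 and 3 and to 162.2, 206.3 and 262.7 FPKM in the prx-5-labelled ones, which overlap. Every prx-5-labelled value of wrt-2, elt-1 and che-14 was above every control value, and the log2 fold changes of the cuticle collagen rol-6 and of wrt-10 were 2.28 ± 1.07 and 1.73 ± 0.74 (SE). Every prx-5-labelled value of mup-4 lay below every control value, as for col-19. The log2 fold change of mup-4 was -0.41 ± 0.17 (SE, limma adjusted p = 0.226). None of these genes but col-19 passed the test, and elt-1, che-14, rol-6 and wrt-10 lie outside the rule for named genes. The faller was the adult cuticle collagen col-19, at 997.2 ± 35.9 FPKM in the control-labelled and 293.8 ± 54.1 FPKM in the prx-5-labelled libraries (log2 -1.77 ± 0.19 SE, limma adjusted p = 0.00816). The epidermal transcription factor gene lin-26 had 57.5 ± 8.90 and 61.2 ± 1.27 FPKM and elt-3 had 10.2 ± 1.25 and 8.32 ± 1.37, both listed outside the rule for named genes and not past the test. The part of the col-19 change in the levels of the fipr genes was not tested.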

How the data were processed

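The authors deposited FPKM for each of the 6 libraries, per the file headers, and a table comparing the groups with FPKM per group, a log2 ratio of the groups, a score (the test statistic), and p-values with q-values. The submitters' processing notes list CASAVA, Bowtie, Cufflinks and Cuffdiff. Versions, build, annotation and filters are not given in the sources used here. Of loci whose identifiers are in the WBcel235 annotation (Ensembl release 115), 98.2% overlapped the named gene. Coordinates are those of that annotation.

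Tables were joined by row. Of 15796 loci, 913 with differing labels were left out, as were 94 whose library values, after 1 constant per library, missed the authors' group value by over 2%. In the 14789 used, 29 values with status FAIL or HIDATA were set to missing. None of these exclusions was a member. FPKM were used without joint scaling as log2(FPKM + 1), and the 13350 loci averaging 1 FPKM or more were tested with limma 3.58.1 in R 4.3.3 (variance trend, no replicate block, Benjamini-Hochberg, threshold 0.05). The procedure was also run on simulated data with errors drawn independently for each locus. Such data cannot test the effect of deviations that a library shares across loci. No fold limit was set. The study's depth is unknown, so no counting intervals are given.

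The named genes were all called members, the 3 most abundant and the 3 with the smallest p of each sub-family, up to 3 per other list, prx-5 and sorb-1; others are marked as chosen after their values were seen. Members and lists were chosen with earlier results of these data known. The planned description of promoter motifs and protein composition was not made, since no sequences were used here.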

Additional observations from a re-analysis of the deposited data

How the results depend on the processing

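Leaving out each library in turn gave 78 to 1836 calls over all loci (1164 with all 6), 0 to 1 members higher, 0 to 5 members lower, 0 to 4 fipr calls, 0 to 1 nlp calls and 0 to 1 grsp calls. Median-ratio scaling, quantile normalization, the authors' constants and sample weights gave 656, 770, 710 and 5219 calls over all loci. Quantile normalization gave 2 members lower, both fipr. Sample weights gave 5 members higher and 11 lower, with 2 nlp, 3 cnc, 1 fip, 3 abf and 2 grsp calls. The nlp sub-family had 1 call, nlp-27, under each of these: median-ratio scaling, a filter at 5 FPKM, the replicate block, a locus minimum of 200 bp, and the authors' constants. The authors' constants moved the fold changes by a median of -0.12 on the log2 scale and quantile normalization by -0.26. The cause of these changes was not tested.

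Fold changes were followed over the settings for the called members and a chosen part of the uncalled ones. Among the uncalled members followed, signs turned for 11 at least once. These included cnc-7 and nlp-34, whose log2 fold changes were 0.73 and 0.41 with all libraries. The signs of the remaining uncalled members were not followed. Under quantile normalization the log2 fold changes were -0.063 for cnc-10, -0.21 for fip-6, -0.043 for nlp-29 and -0.20 for fipr-7. With sample weights they were -0.30 for cnc-7, -0.013 for fip-2, -0.54 for nlp-29 and -0.42 for nlp-34, and with the authors' constants -0.031 for fipr-2. Leaving out single libraries gave -0.49 to 0.021 for cnc-3, -0.006 to 0.32 for cnc-10, -0.029 to 0.32 for fip-6, -0.11 to 0.41 for fip-2 and -0.21 to 0.63 for fipr-1. It gave -0.13 to 0.40 for fipr-2, -0.19 to 0.54 for nlp-29 and -0.18 to 1.11 for nlp-34. The ranges were -0.50 to 0.917 for fipr-7 and -0.348 to 0.26 for nlp-31.

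Same-numbered deviations correlated at 0.29, 0.23 and -0.12, and differently numbered ones at -0.446 to 0.33. These correlations cannot show whether libraries of the same replicate number share a batch. The replicate block gave 1254 calls over all loci and kept all 4 fipr calls. Over the alternatives, the adjusted p ran from 0.000605 to 0.0611 for fipr-5, 0.00159 to 0.138 for fipr-9, 0.000767 to 0.152 for fipr-13, 0.00152 to 0.1 for fipr-21 and 0.00149 to 0.171 for nlp-27.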
